A study of Mus musculus with 12 samples.

Results

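Zbtb16, Sohlh1, Sohlh2, Kit and Kitl were followed in whole fetal testes of mice with and without the transcription factor gene Dmrt1. The members were all probe sets that the platform annotation gives to only 1 of these 5 genes, which made 11 of the 45101 probe sets on the array and 5 of the 18194 genes that the annotation names in this way. Zbtb16 has 3 probe sets, Sohlh1 has 1, Sohlh2 has 1, Kit has 2 and Kitl has 4. The study hybridised total RNA of testes from E15.5 embryos to 12 arrays, 3 for each of 4 groups. The groups were wild-type 129Sv testes, Dmrt1 knockout 129Sv testes, wild-type B6 testes and Dmrt1 knockout B6 testes. The series text calls the removal of Dmrt1 conditional, while the sample labels give only wild type or knockout. The labels do not name the driver of a conditional removal, the part of the gene removed, or any floxed allele or Cre transgene in the wild-type animals. The growth protocol names an age that differs from the E15.5 of the sample labels, and the age given here is that of the sample labels. The titles of most arrays carry different codes, but no label says whether the 3 samples of a group came from separate animals. The p-values therefore measure only the spread between these samples, which may be technical.

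These genes mark and govern steps in the life of male germ cells. ZBTB16, also called PLZF, is a zinc finger repressor of undifferentiated spermatogonia, needed to keep the stem cell pool from running out, and is also a known factor of innate-like lymphocytes. SOHLH1 and SOHLH2 are germ cell basic helix-loop-helix factors that are needed for spermatogonial differentiation, can pair with each other and bind E-box DNA motifs. KIT is the receptor tyrosine kinase that migrating germ cells and differentiating spermatogonia carry, and mast cells and melanocytes depend on it too. KITL, or stem cell factor, is its ligand, made in the testis chiefly by Sertoli cells. DMRT1 is present in both germ cells and Sertoli cells of the testis.

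The 250 bases before the start of Sohlh1, Sohlh2 and Kit are shown because SOHLH factors are known to bind E-boxes and the array values of these 3 genes followed different patterns. The windows come from RefSeq (GRCm38.p6), which gave one for 4 of the 5 genes. Each is written 5′ to 3′ on the strand of the gene, and capitals mark each E-box, CANNTG, a motif that reads as CANNTG on either strand. Sohlh1 lies on the minus strand with its window at chr2:25847249-25847498, Sohlh2 on the plus strand at chr3:55181794-55182043, and Kit on the plus strand at chr5:75574737-75574986.
Sohlh1: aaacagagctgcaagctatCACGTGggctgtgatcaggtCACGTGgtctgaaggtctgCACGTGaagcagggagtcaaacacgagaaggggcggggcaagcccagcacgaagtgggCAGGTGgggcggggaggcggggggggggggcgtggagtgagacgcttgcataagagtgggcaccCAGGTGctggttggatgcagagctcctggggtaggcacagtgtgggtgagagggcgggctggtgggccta
Sohlh2: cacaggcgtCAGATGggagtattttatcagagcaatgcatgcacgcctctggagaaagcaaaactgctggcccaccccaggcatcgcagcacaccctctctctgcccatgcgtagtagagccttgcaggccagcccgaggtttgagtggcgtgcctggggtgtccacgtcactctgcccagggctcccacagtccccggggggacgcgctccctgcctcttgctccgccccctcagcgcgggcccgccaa
Kit: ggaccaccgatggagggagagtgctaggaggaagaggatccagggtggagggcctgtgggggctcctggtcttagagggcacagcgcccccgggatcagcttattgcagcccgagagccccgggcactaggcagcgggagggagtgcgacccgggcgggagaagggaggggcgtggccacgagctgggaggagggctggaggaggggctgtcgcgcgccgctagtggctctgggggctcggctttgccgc
The Sohlh1 window held 5 E-boxes. Of these, 3 were CACGTG, starting 231, 211 and 192 bases before the gene start, and the others were CAGGTG at 134 and 70 bases. The Sohlh2 window held 1 E-box, CAGATG, 241 bases before the start, and the Kit window held none. Among 32851 RefSeq windows of this length, 66.2% held at least 1 CANNTG and 12.2% held 3 or more, while 6.02% held CACGTG and 0.0609% held it 3 or more times. ACANTGT, a short form of the motif DMRT1 binds, was searched on both strands and stood once in the Sohlh1 window, as ACAGTGT 34 bases before the start, and in neither of the others. It stood in 6.47% of all windows. These are matches of letters, and no binding was measured.

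The deposited values are GCRMA intensities, in which the probes of a gene are corrected for background and summarised to 1 value per array. Array medians ran from 17.3 to 19 and the correlation between arrays of a group from 0.983 to 0.998, with no pair of identical arrays. An intensity of 16 (log2 of 4) in at least 3 arrays was taken as the minimum for testing, which left 24820 probe sets, 9 of the 11 members among them. Control probe sets at both ends of Actb read RNA quality, and the 3′ signal over the 5′ signal was 6.30 on B6 knockout replicate 3 and 5.24 on 129Sv knockout replicate 1, and 3.91 or lower elsewhere. Dmrt1 itself read 924 to 1183 in the 129Sv wild-type arrays and 145 to 181 in the knockout arrays, a log2 difference of -2.64 ± 0.17 (SE; limma adjusted p = 3.21e-06). In B6 it read 795 to 1092 in wild type and 64.0 to 86.4 in knockout, a log2 difference of -3.72 ± 0.17 (SE; limma adjusted p = 2.57e-07). Ddx4 and Dazl, general germ cell genes, passed the test in neither strain, with log2 differences of 0.02 and 0.41 in 129Sv and of -0.46 and -0.13 in B6. Changes are given as log2 differences from 1 limma fit over all 12 arrays, passing at an adjusted p under 0.05.

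Zbtb16 fell in the 129Sv knockout, and its level in 129Sv wild type was above that of every other group. Its brightest probe set, 1419874_x_at, read 91.4, 99.8 and 118 in 129Sv wild type and 40.6, 21.1 and 25.0 in 129Sv knockout. The arrays did not overlap, and the 129Sv knockout was 3.69-fold lower (log2 difference -1.88 ± 0.27 SE, n = 3 per group, limma adjusted p = 0.00108). In B6 it read 23.9, 19.6 and 26.6 in wild type and 12.0, 14.6 and 20.4 in knockout. These groups overlapped, and the log2 difference of -0.60 ± 0.27 (SE) did not pass (limma adjusted p = 0.217, 95% interval -1.18 to -0.02). In whole testes, fewer cells of a type and less RNA per cell cannot be told apart. The suffix _x_at says that some probes of this set may also match other transcripts.

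Between strains, Zbtb16 was 4.43-fold higher in 129Sv than in B6 wild type (log2 difference 2.15 ± 0.27 SE, limma adjusted p = 0.0002). Among knockouts the log2 difference of 0.86 ± 0.27 (SE) also passed (limma adjusted p = 0.028), at least a 1.74-fold difference because the B6 knockout mean lay under 16. Germ cell markers stood higher in this contrast too: 11 of 11 passed upward in 129Sv, Ddx4 by 0.89 (limma adjusted p = 0.00126) and Dazl by 0.84 (limma adjusted p = 0.0105). Of all tested probe sets 30% passed between knockouts in either direction, and 57.5% of those calls were higher in 129Sv. Scaled to Ddx4 and Dazl, the Zbtb16 difference between knockouts was 0.0005 (limma adjusted p = 0.999). That scale put the median difference of all probe sets between knockouts at -0.851. Since it moves every probe set of an array alike, a change on it shows nothing particular to Zbtb16 or another gene. The Zbtb16 call between knockouts was lost in 6 of 28 alternatives, among them leaving out 129Sv knockout replicate 1 (0.59, limma adjusted p = 0.114) or 3 (0.94, limma adjusted p = 0.0509) and B6 knockout replicate 1 (0.69, limma adjusted p = 0.0921) or 2 (0.83, limma adjusted p = 0.0707). Between wild types 3 of the 11 germ cell markers passed upward in 129Sv. There 13.6% of all tested probe sets passed in either direction, and 60.6% of those calls were higher in 129Sv. The Zbtb16 difference between wild types on the Ddx4 and Dazl scale was 1.80 (limma adjusted p = 0.00745). The median of all probe sets on that scale was -0.334 between wild types. The order of the Zbtb16 levels was 129Sv wild type at a geometric mean of 102.6, 129Sv knockout at 27.8, B6 wild type at 23.2 and B6 knockout at 15.3. The 129Sv knockout and the B6 wild type were neighbours that overlapped (log2 difference 0.26, limma adjusted p = 0.527). The difference between the strains' knockout effects was -1.28 ± 0.38 (SE) and did not pass (limma adjusted p = 0.182).

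The second tested Zbtb16 probe set, 1439163_at, had the same order. It read 26.8, 20.4 and 29.0 in 129Sv wild type and 3.41 to 9.01 on the other 9 arrays. It was tested only because the 129Sv wild-type arrays exceed 16, so its calls add no support. The third, 1427638_at, stayed between 5.19 and 6.63 on all 12 arrays and was not tested. Zbtb16 spans chr9:48651797-48836225 (GRCm38.p6). Because ZBTB16 is also known from innate-like lymphocytes, the innate lymphocyte markers were read beside it. Of 7 such genes only Gzma reached 16 in enough arrays to be tested, and the summed intensity of the list was 272.8 to 390.1 in 129Sv wild type, 55.9 to 99.5 in 129Sv knockout, 126 to 186.8 in B6 wild type and 39.4 to 70.5 in B6 knockout. The sums were highest in 129Sv wild type, as was Zbtb16, but Gzma was the only gene in them to reach 16 on any array. It ran from 5.85 to 354 over the 12 arrays. Cd3e, Cd4, Cd8a, Gata3, Il7r and Ncr1 stayed under 16 throughout, the highest value among them being 12.5 (Cd8a). The sums thus show the course of Gzma and no pattern of the list as a whole. Gzma, a granzyme of cytotoxic lymphocytes, fell 9.77-fold in 129Sv (limma adjusted p = 0.00416) and at least 7.28-fold in B6 (limma adjusted p = 0.0035). The part of such cells in the Zbtb16 values was not tested.

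Sohlh1 fell in the B6 knockout and was higher in 129Sv than in B6 in both genotypes. Its 1 probe set, 1460015_at, read 28.4, 35.4 and 77.9 in B6 wild type and 6.90, 6.81 and 10.2 in B6 knockout, where every array lay under 16. The groups did not overlap, and the B6 knockout was at least 2.68-fold lower (log2 difference -2.45 ± 0.51 SE, n = 3 per group, limma adjusted p = 0.0151). That call rested on single arrays: without B6 wild-type replicate 3 the log2 difference was -2.02 (limma adjusted p = 0.0924), and without B6 knockout replicate 2 it was -2.35 (limma adjusted p = 0.0552). With values under 16 raised to 16 it was -1.42 (limma adjusted p = 0.145).

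In 129Sv, Sohlh1 read 131, 194 and 118 in wild type and 42.4, 34.0 and 164 in knockout. Knockout replicate 3 lay inside the wild-type range and the other two below it. The log2 difference of -1.22 ± 0.51 (SE) did not pass (limma adjusted p = 0.224, 95% interval -2.32 to -0.12), and without knockout replicate 3 it was -1.92 and passed (limma adjusted p = 0.0135). The strains' knockout effects differed by 1.23 ± 0.72 (SE), which did not pass (limma adjusted p = 0.481).

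By strain, Sohlh1 was 3.37-fold higher in 129Sv wild type than in B6 wild type (log2 difference 1.75 ± 0.51 SE, limma adjusted p = 0.0372). That call was lost in 10 of 28 alternatives. Leaving out any 129Sv wild-type array, or B6 wild-type replicate 1 or 2, gave 1.46 to 1.90 with limma adjusted p-values from 0.0682 to 0.149. Scaled to Ddx4 and Dazl the difference was 1.40 (limma adjusted p = 0.0989), beside a median of -0.334 over all probe sets. In the knockouts it was at least 3.87-fold higher in 129Sv (log2 difference 2.98 ± 0.51 SE, limma adjusted p = 0.000929), which passed in all 28 alternatives, with 2.12 (limma adjusted p = 0.00281) on the Ddx4 and Dazl scale. The order of geometric means was 144.1 in 129Sv wild type, 61.9 in 129Sv knockout, 42.8 in B6 wild type and 7.83 in B6 knockout. The middle pair overlapped and differed by 0.53 on the log2 scale (limma adjusted p = 0.496). Sohlh1 spans chr2:25842995-25847248 (GRCm38.p6).

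Sohlh2 rose in the 129Sv knockout. Its 1 probe set, 1429817_at, read 20.7, 20.3 and 15.2 in 129Sv wild type and 182, 161 and 91.8 in 129Sv knockout. The groups did not overlap, and the knockout was 7.49-fold higher (log2 difference 2.91 ± 0.40 SE, n = 3 per group, limma adjusted p = 0.000844). In B6 it read 26.4, 29.8 and 17.9 in wild type and 93.5, 88.9 and 29.7 in knockout. Knockout replicate 3 lay within the wild-type range, while the other two were above all wild-type arrays. The B6 difference of 1.38 ± 0.40 (SE), a 2.60-fold higher mean, did not pass (limma adjusted p = 0.0708).

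B6 knockout replicate 3 was also the array with the highest Actb ratio and the lowest Ddx4 (1700) and Dazl (1273) intensities. Without it the B6 log2 difference of Sohlh2 was 1.92 and passed (limma adjusted p = 0.0026). With 1 probe set per gene in the fit the value of 1.38 also passed (limma adjusted p = 0.0408). The knockout effects of the strains differed by 1.53 ± 0.57 (SE), which did not pass (limma adjusted p = 0.279). Sohlh2 did not pass between the wild types (log2 difference -0.38, limma adjusted p = 0.581). Between the knockouts 129Sv was higher by 1.15 ± 0.40 (SE; limma adjusted p = 0.0449), with overlapping arrays, and this call was lost in 16 of 28 alternatives. Without B6 knockout replicate 3 it was 0.61 (limma adjusted p = 0.138). Scaled to Ddx4 and Dazl it was 0.28 (limma adjusted p = 0.48), beside a median of -0.851 over all probe sets. The losses include leaving out 129Sv knockout replicate 1 (0.95, limma adjusted p = 0.139) or 2 (1.04, limma adjusted p = 0.123), any 129Sv wild-type array or B6 wild-type replicate 1. Its order was 129Sv knockout at a geometric mean of 139, B6 knockout at 62.7, B6 wild type at 24.2 and 129Sv wild type at 18.6, and neither the B6 pair nor the wild-type pair differed past the threshold. Sohlh2 spans chr3:55182044-55209957 (GRCm38.p6).

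**Figure D1:**
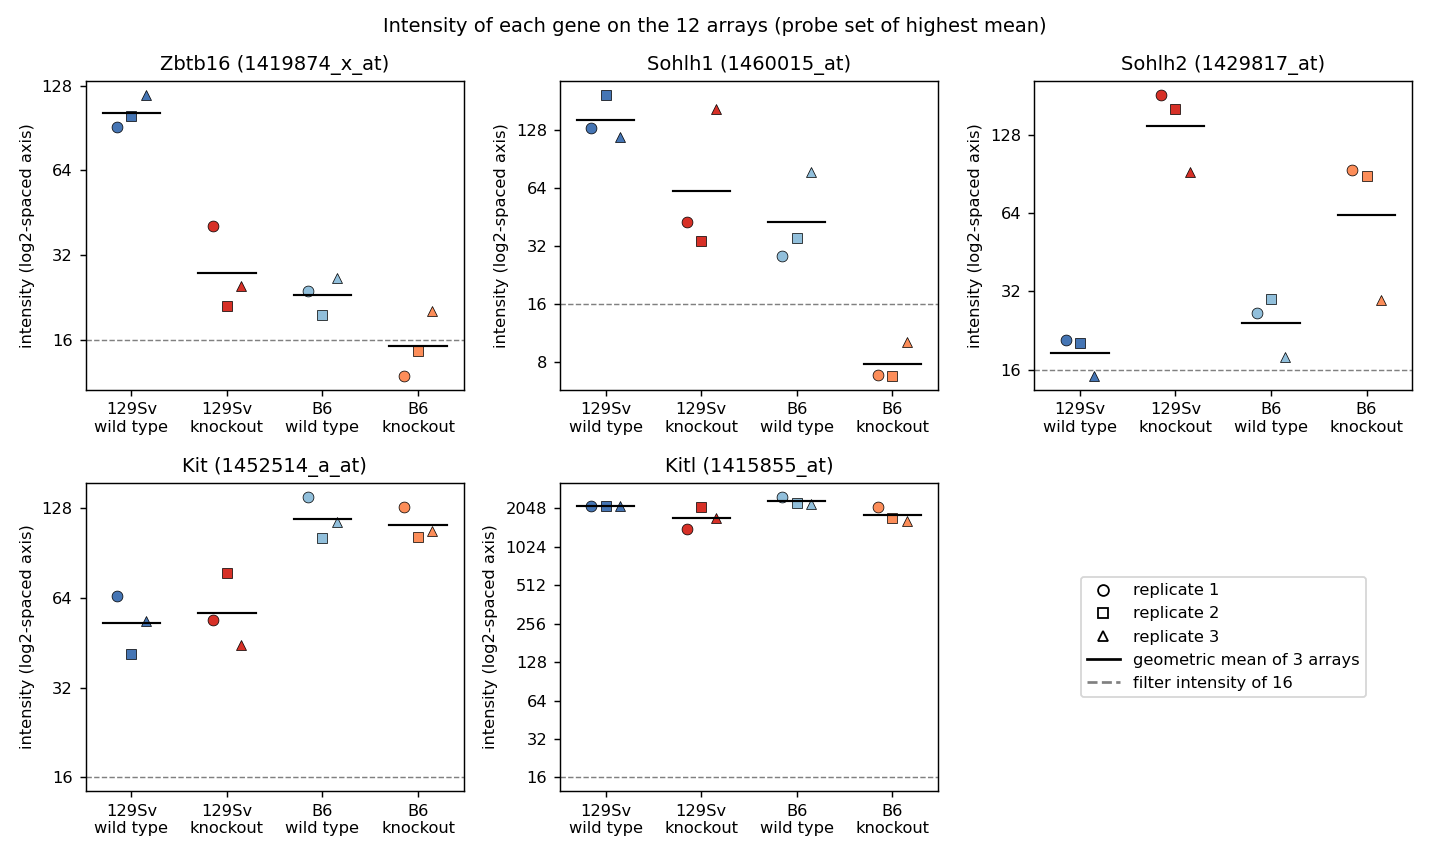
Intensity (log2-spaced axis) of the probe set of highest mean of each gene on each of the 12 arrays, by strain and genotype; symbols are replicates, bars the geometric mean of 3 arrays and the dashed line the minimum of 16. Zbtb16 stood highest in 129Sv wild type, all 3 B6 knockout arrays of Sohlh1 lay under 16, and all 3 129Sv knockout arrays of Sohlh2 lay between 91.8 and 182.

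Kit differed between strains and passed no knockout test. Its tested probe set, 1452514_a_at, read 65.0, 41.5 and 53.5 in 129Sv wild type and 54.1, 77.5 and 44.4 in 129Sv knockout. In B6 it read 139, 102 and 114 in wild type and 129, 102 and 107 in knockout. Every B6 array was above every 129Sv array. Whether the probes match 129Sv and B6 transcripts alike was not tested, for Kit or for the other genes. Wild-type 129Sv was 2.24-fold lower than wild-type B6 (log2 difference -1.16 ± 0.24 SE, limma adjusted p = 0.00614), and the 129Sv knockout was 1.97-fold lower than the B6 knockout (log2 difference -0.98 ± 0.24 SE, limma adjusted p = 0.00814). The knockout difference was 0.12 ± 0.24 (SE) for 129Sv testes (95% interval -0.39 to 0.63, limma adjusted p = 0.874). For B6 testes it was -0.07 ± 0.24 (SE) (95% interval -0.58 to 0.44, limma adjusted p = 0.889). A change within those intervals was not detectable with these arrays.

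The second Kit probe set, 1415900_a_at, read 6.96 to 9.10 in 129Sv and 11.8 to 16.9 in B6, and was not tested because only 1 array reached 16. It was higher on every B6 array than on every 129Sv array. Mast cells and melanocytes also carry KIT, so their markers were read beside it. Summed over 9 mast cell markers the intensity was 323.8 to 588.1 in 129Sv wild type, 338.1 to 593.7 in 129Sv knockout, 287.3 to 718 in B6 wild type and 427.8 to 666.4 in B6 knockout, so the sums of the strains overlapped. Of the 5 tested mast cell markers, none passed between wild types, with a median log2 difference of -0.60 for 129Sv minus B6 (1 lower and none higher at an unadjusted limma p under 0.05). Between knockouts 2 were lower in 129Sv, Cma1 (-1.84, limma adjusted p = 0.044) and Tpsb2 (-1.14, limma adjusted p = 0.048), with a median of -0.82. Of all tested probe sets 13.6% passed between wild types and 30% between knockouts, in either direction. The mast cell medians had the sign of the Kit difference, and the part of mast cells in that difference was not tested. The mast cell genes Tpsab1, Fcer1a and Ms4a2 never reached 16. The 9 melanocyte markers summed to 244 to 302.4, 202.3 to 273.6, 192.1 to 241.4 and 186.7 to 213.5 in the same order, and the pigment genes Dct, Tyr, Tyrp1 and Pmel never reached 16. Of 3 tested, 1 was higher in 129Sv between wild types, and 2 were higher and 1 lower between knockouts, beside the same 13.6% and 30% of all probe sets. Kit spans chr5:75574987-75656722 (GRCm38.p6).

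No knockout or strain comparison of Kitl passed in the fit over all 12 arrays, though some differences of both kinds did in alternatives. Probe set 1415855_at read 2132, 2145 and 2123 in 129Sv wild type and 1414, 2086.2 and 1729 in 129Sv knockout. It read 2528, 2256 and 2229 in B6 wild type and 2095, 1721 and 1641 in B6 knockout. In each strain the knockout arrays lay below the wild-type arrays, and neither difference passed. The log2 difference was -0.31 ± 0.13 (SE) in 129Sv testes, at a limma adjusted p = 0.246. For B6 testes it was -0.37 ± 0.13 (SE), at a limma adjusted p = 0.141. All 4 Kitl probe sets had negative log2 differences in both strains, which is a description, since 3 of them come from the same transcript record and are not independent.

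The further Kitl probe sets varied more between arrays. Probe set 1448117_at read 231 to 295 in 129Sv wild type, 136 to 189 in 129Sv knockout, 256 to 370 in B6 wild type and 163 to 257 in B6 knockout. Its log2 differences were -0.67 (limma adjusted p = 0.0907) in 129Sv and -0.61 (limma adjusted p = 0.122) in B6. Probe set 1426152_a_at, from another transcript record, ran from 58.8 to 71.6 in 129Sv wild type, 33.6 to 47.5 in 129Sv knockout, 70.3 to 117 in B6 wild type and 26.8 to 58.6 in B6 knockout. Its differences were -0.72 (limma adjusted p = 0.196) and -1.02 (limma adjusted p = 0.0585), and those of 1415854_at were -0.60 (limma adjusted p = 0.359) and -0.65 (limma adjusted p = 0.245). In 129Sv, 1448117_at passed in 5 alternatives: with array weights (-0.73, limma adjusted p = 0.00665), with only the groups compared (-0.67, limma adjusted p = 0.0458), with the Actb ratio as a covariate (-0.58, limma adjusted p = 0.03), on the Ddx4 and Dazl scale (-0.89, limma adjusted p = 0.0445) and without B6 knockout replicate 3 (-0.67, limma adjusted p = 0.0372). Probe set 1426152_a_at passed in 129Sv with only the groups compared (limma adjusted p = 0.0427). In B6 it passed with array weights (-0.74, limma adjusted p = 0.0162) and without B6 knockout replicate 1 (-1.26, limma adjusted p = 0.0274). With array weights 1415855_at (limma adjusted p = 0.0258) and 1448117_at (limma adjusted p = 0.0183) passed in B6 as well, and 1415854_at passed a knockout test in no alternative. Between knockouts, 1415854_at passed lower in 129Sv without B6 knockout replicate 3 (-0.73, limma adjusted p = 0.0443), and 1448117_at with array weights (-0.41). On the Ddx4 and Dazl scale all 4 Kitl probe sets passed between knockouts (limma adjusted p from 0.000649 to 0.00793), beside a median of -0.851 over all probe sets. Kitl spans chr10:100015615-100100416 (GRCm38.p6).

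Kitl is made chiefly by Sertoli cells, and the Sertoli cell markers moved with genotype. Of 19 markers tested, 5 fell and none rose in 129Sv, and 5 fell and 1 rose in B6, against 3.43% lower and 3.31% higher of 12726 genes in 129Sv and 4.31% lower and 1.52% higher in B6. Fshr, the FSH receptor, is among them in both strains, but it reached 16 only in the 6 wild-type arrays and was tested through them, so its fall adds no support. Gdnf, a Sertoli cell growth factor for spermatogonia, fell 2.40-fold in 129Sv (limma adjusted p = 0.00125) and 1.87-fold in B6 (limma adjusted p = 0.0133). Cst9, a cystatin, fell 2.30-fold in 129Sv (limma adjusted p = 3.44e-06) and 2.54-fold in B6 (limma adjusted p = 1.94e-06). The summed intensity of the markers was 33308 to 36840 in 129Sv wild type, 25839 to 30642 in 129Sv knockout, 35908 to 38415 in B6 wild type and 32657 to 36500 in B6 knockout. With arrays scaled to these markers the differences of Kitl 1415855_at were 0.08 in 129Sv (limma adjusted p = 0.75) and -0.06 in B6 (limma adjusted p = 0.838), on a scale that put the median difference of all probe sets at 0.384 and 0.322. Since that scale moves every probe set of an array alike, the change of sign in 129Sv shows nothing particular to Kitl.

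**Figure D2:**
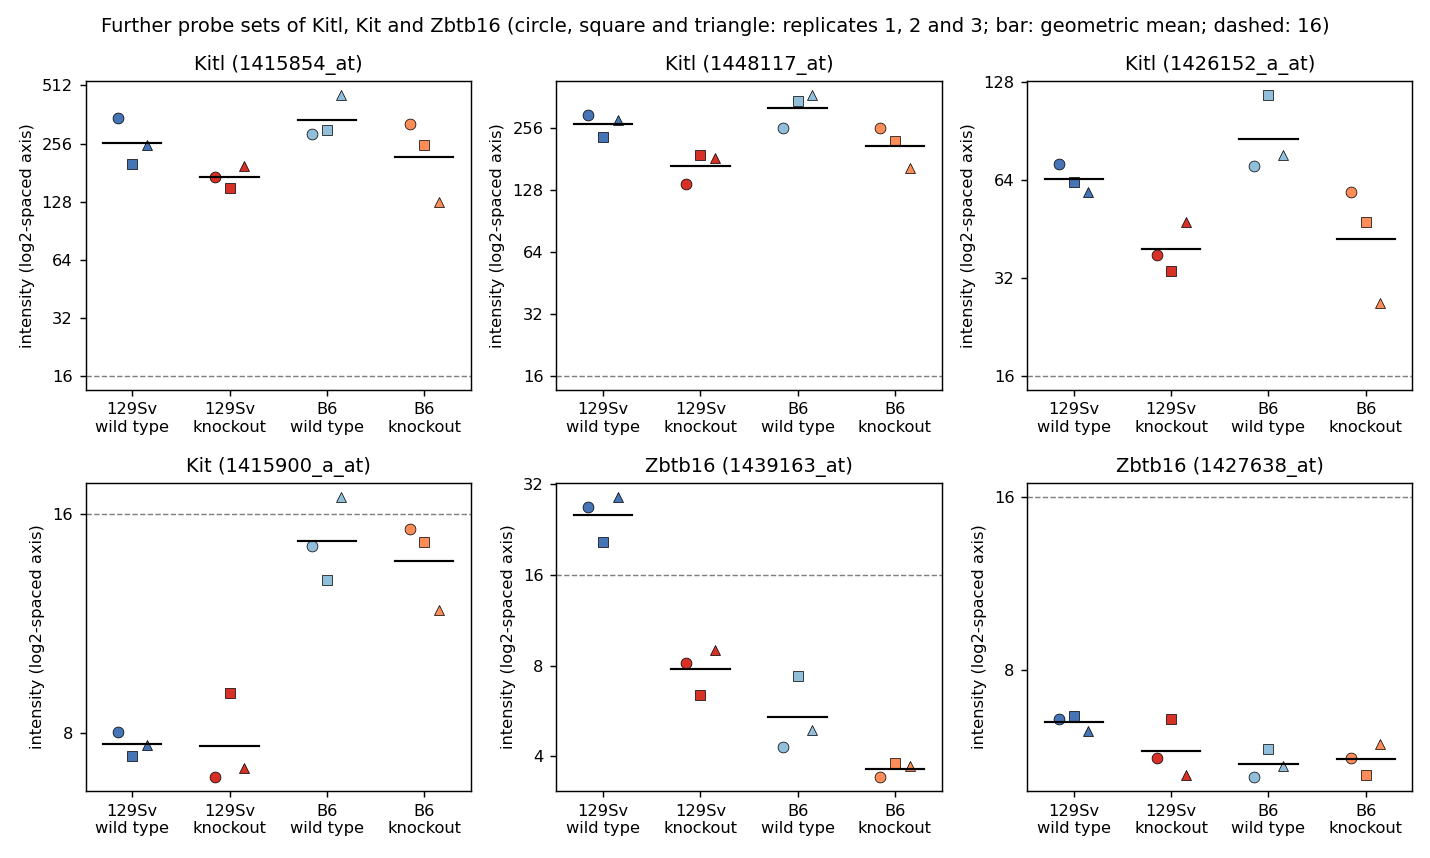
Intensity (log2-spaced axis) of the other 6 probe sets of Kitl, Kit and Zbtb16 on the 12 arrays, with replicates as symbols, geometric means of 3 arrays as bars and 16 as the dashed line. The panel of Kit 1415900_a_at shows all B6 arrays above all 129Sv arrays, and that of Zbtb16 1439163_at shows only 129Sv wild type above 16.

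Zbtb16 1439163_at was left out of the counts, because it was tested only through 129Sv wild type. Among the other 8 tested probe sets the knockout effect passed upward in 1 (Sohlh2) and downward in 1 (Zbtb16) in 129Sv, against 2.74% higher and 2.51% lower of all 24820 probe sets. In B6 none passed upward and 1 (Sohlh1) downward in limma, against 1.17% and 3.44%. At an unadjusted limma p under 0.05 they were 1 upward (Sohlh2) and 5 downward in each strain. The 5 were probe sets of only 3 genes: Zbtb16, Sohlh1 and Kitl (1415855_at, 1448117_at and 1426152_a_at). The share of all probe sets at that unadjusted threshold was not computed, here or for the lists, so such counts are only a description. No member passed the test of the difference between the strains' effects, which 0.298% of probe sets passed, so none of the effects is shown to differ between strains. At an unadjusted limma p under 0.05 there were 2, namely Zbtb16 and Sohlh2, again without a share of all probe sets at that threshold. Between wild types 2 were higher in 129Sv (Zbtb16 and Sohlh1) and 1 lower (Kit), where 13.6% of probe sets passed in either direction. Between knockouts 3 were higher (Zbtb16, Sohlh1 and Sohlh2) and 1 lower, where 30% passed. The 129Sv knockout arrays share 1 number in their titles before the strain code, which 1 of the 3 129Sv wild-type arrays also has and whose meaning the labels do not give. With that number as a covariate, the 129Sv knockout arrays are in effect compared with 129Sv wild-type replicate 2 alone. The log2 difference was then -1.84 for Zbtb16 1419874_x_at and 2.77 for Sohlh2. Resting on 1 wild-type array, these values give a size only.

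**Figure D3:**
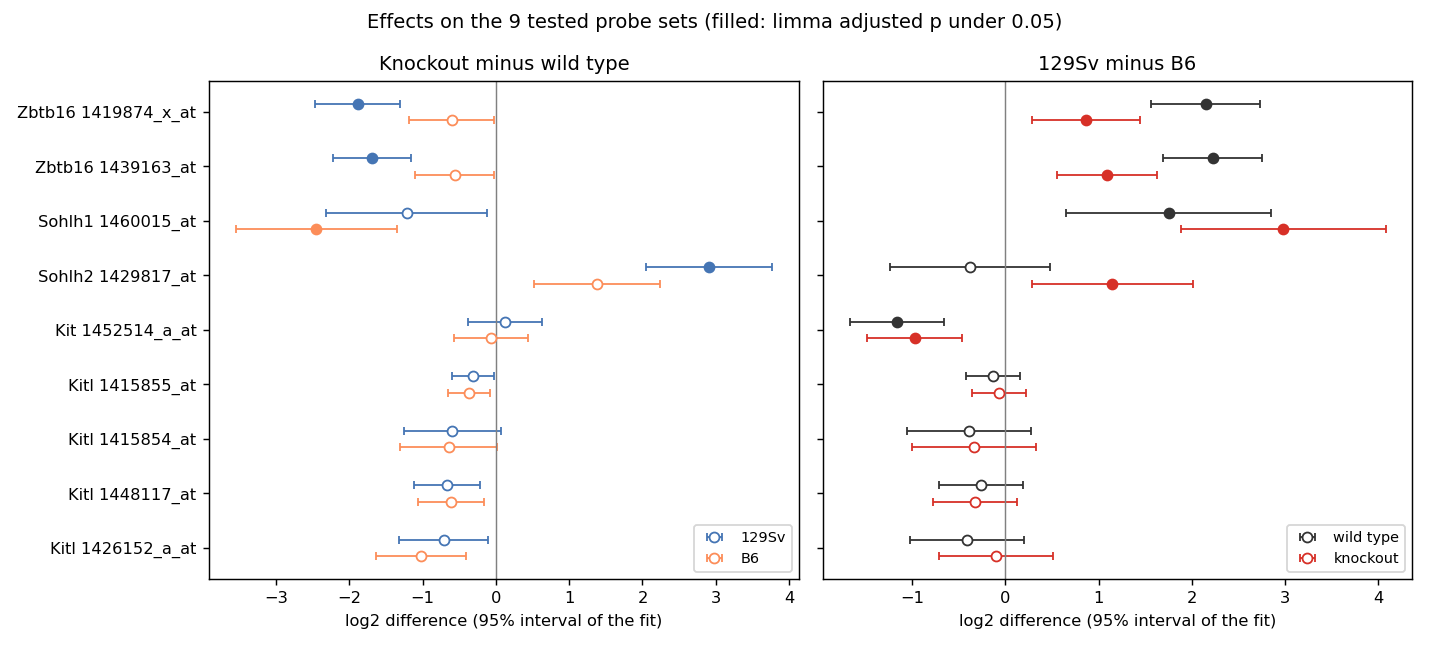
Log2 differences of the 9 tested probe sets with the 95% interval of the fit, knockout minus wild type in each strain (left) and 129Sv minus B6 in each genotype (right); filled symbols passed at an adjusted p under 0.05. Sohlh2 lies to the right of 0 and Zbtb16 and Sohlh1 to the left in both strains on the left panel, while Kit lies left of 0 with both filled symbols on the right panel and close to 0 on the left.

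The other genes of undifferentiated spermatogonia and prospermatogonia moved both ways. Of 35 genes on the array 30 were tested: 7 rose and 3 fell in 129Sv (median log2 difference 0.15), and 5 rose and 8 fell in B6 (median -0.10), where the medians of all tested genes were -0.01 and 0.03. Of all 12726 tested genes 3.31% rose and 3.43% fell in 129Sv, and 1.52% rose and 4.31% fell in B6. The largest in 129Sv were Lhx1, which rose 10.5-fold (limma adjusted p = 0.003), Pou3f1, which rose 7.49-fold (limma adjusted p = 8.36e-06), and Eomes, which rose at least 4.80-fold (limma adjusted p = 2.85e-05) and reached 16 only in the knockouts, through which it was tested. Lhx1 and Pou3f1 are transcription factors that GDNF is known to induce in spermatogonia, and Lhx1 and Eomes are also factors of the early embryo. In B6 the largest were Dnmt3l, a cofactor of de novo DNA methylation, which fell 23.5-fold (limma adjusted p = 0.00043), Piwil4, a PIWI protein of prospermatogonia, which fell 5.37-fold (limma adjusted p = 0.000467), and Lhx1, which rose 5.33-fold (limma adjusted p = 0.0271).

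Genes of differentiating spermatogonia moved in different numbers in the 2 strains, and that difference was not tested for the list. Of 17 genes 14 were tested: 3 rose and 1 fell in 129Sv (median 0.20), and none rose and 6 fell in B6 (median -0.88), or 1 and 8 at an unadjusted limma p under 0.05. The shares of all genes were 3.31% higher and 3.43% lower in 129Sv, and 1.52% and 4.31% in B6. In 129Sv the largest were Sox3, a transcription factor of spermatogonia, which rose 7.63-fold (limma adjusted p = 0.000206), Dnmt3b, a DNA methyltransferase, which rose 3.77-fold (limma adjusted p = 3.21e-06), and Rarg, a retinoic acid receptor, which rose 1.77-fold (limma adjusted p = 0.0241). In B6 they were Nxf2, an mRNA export factor, which fell 10.3-fold (limma adjusted p = 0.000259), Rhox13, a homeobox gene, which fell at least 2.98-fold (limma adjusted p = 0.000358), and Stk31, a germ cell kinase-like protein, which fell 2.39-fold (limma adjusted p = 0.0205). Germ cell markers moved beside these lists: 1 of 11 rose and none fell in 129Sv, and 1 rose and 6 fell in B6. Stk31 is among those 6 and stands in both lists, so the counts of the 2 lists are not independent. Ddx4 and Dazl, also in the marker list, passed in neither strain. The summed intensity of the 11 markers was 26787 to 27563 in 129Sv wild type, 22385 to 29882 in 129Sv knockout, 18342 to 21736 in B6 wild type and 8343 to 13663 in B6 knockout. The part of these markers in the B6 falls was not tested.

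**Figure D4:**
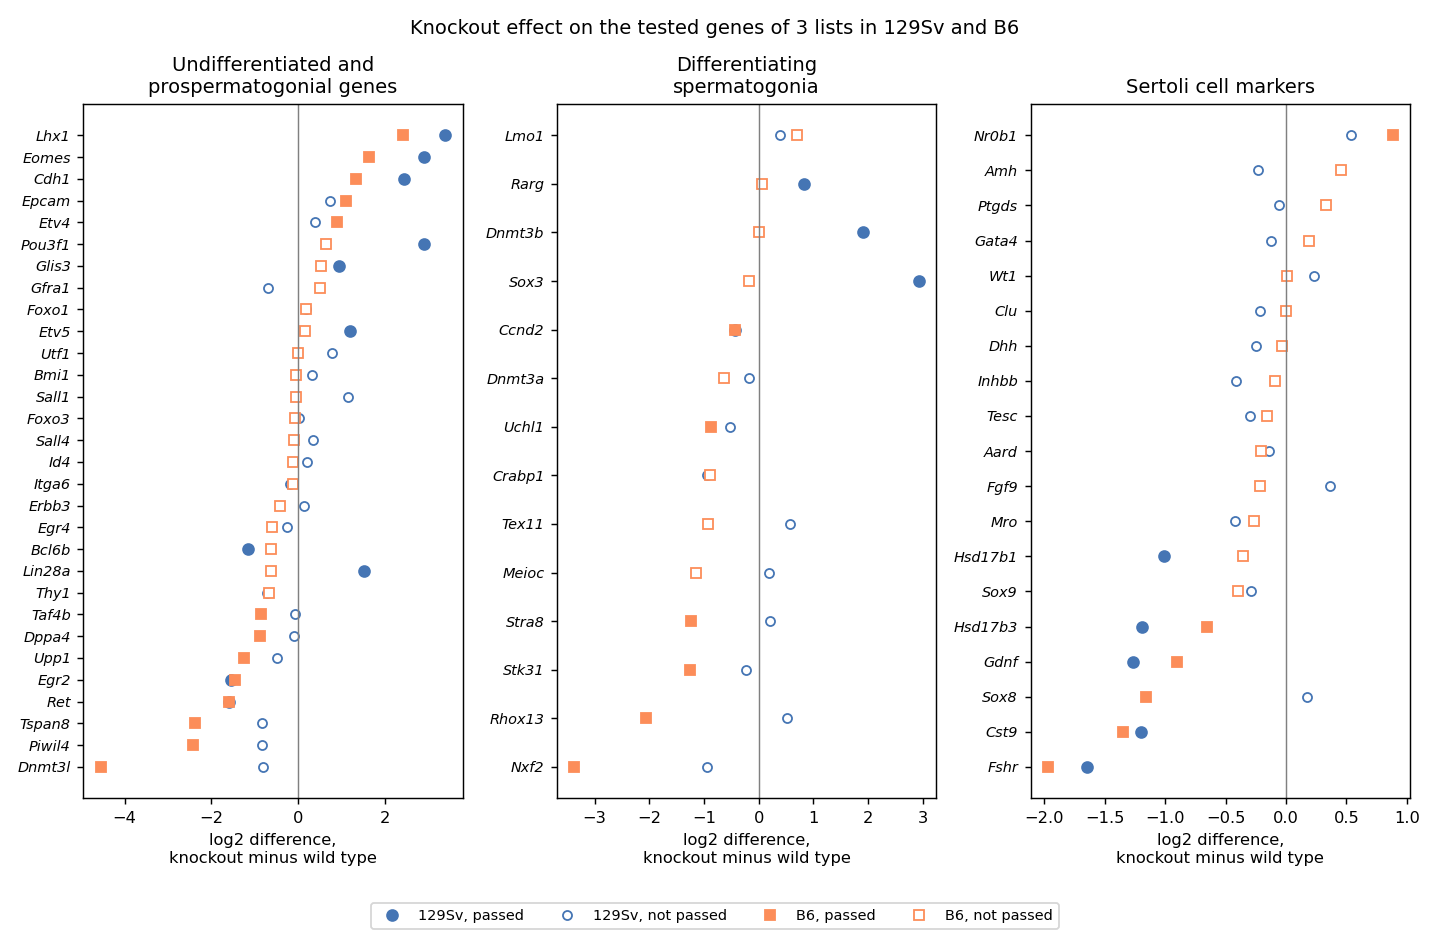
Log2 difference of knockout against wild type in 129Sv (circles) and B6 (squares) for the tested genes of 3 lists, filled where the adjusted p was under 0.05. Dnmt3l, Piwil4 and Nxf2 lie far left in B6, and Lhx1, Pou3f1, Eomes and Sox3 far right in 129Sv.

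Markers of other somatic cells were read for the same contrasts. In the fit over all arrays, 3.31% of all tested genes rose and 3.43% fell in 129Sv. In B6, 1.52% rose and 4.31% fell. No such share is given for the fit without the 2 arrays of the highest Actb ratio. Of the fetal Leydig (7), interstitial and peritubular (9), endothelial (11), macrophage and leukocyte (11) and blood (8) genes tested, none passed in limma in either strain, while between 0 and 2 of a list did in a direction at an unadjusted p under 0.05. Without the 2 arrays of the highest Actb ratio, 1 interstitial and peritubular gene and 1 blood gene fell in 129Sv. Of 7 ovarian somatic genes 3 rose in 129Sv, Rspo1, a Wnt pathway activator, the most (3.02-fold, limma adjusted p = 0.00196), and 1, Wnt4, rose in B6 (1.75-fold, limma adjusted p = 0.0118). Without the 2 arrays of the highest Actb ratio, 2 of these 7 rose in 129Sv, and 1 rose and 1 fell in B6.

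Of the SOHLH partners and known germ line targets, 8 of 14 were tested. In 129Sv 2 rose, Sox3 and Nobox, the latter an oocyte homeobox gene that was at least 2.58-fold higher (limma adjusted p = 0.00196) and was tested only through the 129Sv knockout, and none fell. In B6 Uchl1, a ubiquitin hydrolase of spermatogonia, fell 1.83-fold (limma adjusted p = 0.0081) and none rose. For this list and the next 3 the shares of all genes are again 3.31% higher and 3.43% lower in 129Sv, and 1.52% and 4.31% in B6. Of 48 tested genes that carry the KIT signal inside cells, 3 fell in 129Sv and 1 in B6 and none rose in limma, against 10 and 4 lower and 4 and 2 higher at an unadjusted p under 0.05. Without the 2 arrays of the highest Actb ratio, a choice made after seeing the data, 5 fell in 129Sv. No share of all genes is given for that fit. In the fit over all arrays, the 3 that fell in 129Sv were Ptpn6 (1.90-fold, limma adjusted p = 0.0202), Inpp5d (1.83-fold, limma adjusted p = 0.0263) and Tec (1.68-fold, limma adjusted p = 0.0347). Ptpn6 and Inpp5d are phosphatases that damp the signal, and Tec is a kinase. The gene that fell in B6 in that fit over all arrays was Stat5a (1.97-fold, limma adjusted p = 0.0351), a transcription factor downstream of the receptor. Among 8 tested KIT family receptors and ligands 1, the growth factor gene Pdgfb, fell in 129Sv (1.67-fold, limma adjusted p = 0.0359). In B6 none passed in limma, 1 did so at an unadjusted p under 0.05, and 1 fell without the 2 arrays of the highest Actb ratio. Of 18 tested ZBTB16 partners and related BTB factors, 3 rose and 2 fell in 129Sv and 2 fell in B6. Without the 2 arrays of the highest Actb ratio 3 rose and 1 fell in 129Sv. Bcl6b, a transcriptional repressor that spermatogonial stem cells need, fell 2.24-fold in 129Sv (limma adjusted p = 0.00658). Zbtb7a, a BTB repressor, rose 1.97-fold in 129Sv (limma adjusted p = 0.0209), and Zbtb20 fell 1.84-fold in B6 (limma adjusted p = 0.0247).

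The genes whose log2 values were most like each member over the 12 arrays were listed by Pearson's r, as a description, since the 12 arrays share 4 group means. For Zbtb16 they were Klrb1a (0.974), Sult1c1 (0.970) and Sdc3 (0.960). For Sohlh1 they were Arrb2 (0.993), Pak4 (0.987) and Adad2 (0.987). For Sohlh2 they were Gdf3 (0.978), Mtm1 (0.976) and Esrrb (0.975). For Kit they were Zc3h4 (0.978), Dock1 (0.970) and Sfrp1 (0.969), and for Kitl Kdelr2 (0.939), Gja1 (0.919) and Plxnc1 (0.899). By group geometric mean, Klrb1a (83.2) and Sult1c1 (21.9) reached 16 only in 129Sv wild type, where Zbtb16 was highest. Zc3h4 reached it only in B6 (20.0 in wild type and 17.9 in knockout), where Kit was higher. The r values of these genes therefore add no support. Among the members themselves, r was 0.941 between the tested Zbtb16 probe sets, 0.938 between the Kit probe sets, 0.606 to 0.876 between Kitl probe sets, 0.785 between Zbtb16 and Sohlh1 and -0.401 between Sohlh1 and Sohlh2.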

How the data were processed

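The authors deposited GCRMA values, per the submitters' processing notes, as 1 table of linear intensity for 45101 probe sets on 12 arrays; log2 was taken here from these deposited values. No label or file header names further steps of the authors. Genes were named from the platform annotation, with 34958 probe sets given to 1 gene, 932 to several and 9211 to none. Probe sets with a log2 value of at least 4 (intensity 16) in 3 or more arrays were tested with limma 3.58.1 (R 4.3.3): lmFit with 4 group means over all 12 arrays, eBayes with a variance trend, and Benjamini-Hochberg adjustment over 24820 probe sets, with a threshold of 0.05. The script was tested on simulated data. A gene of a list was represented by its probe set of highest mean. For some lists the 3 largest called changes were named, and for others fewer, so the genes named are not always the largest. A fold against a group mean under 16 is given as at least its distance from 16. The members and lists were chosen with earlier results of these data known. The number of arrays limits the precision. Same-numbered replicates of wild type and knockout correlated from -0.511 to 0.108 in their deviations from the group means. With 3 arrays in a group this cannot decide whether the samples were paired. In the titles, replicate 1 of B6 wild type shares its first number with replicate 1 of B6 knockout. The same holds for replicate 2, and the labels do not say what that number means.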

Additional observations from a re-analysis of the deposited data

How the results depend on the processing

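Over all alternatives, 1107 of the recomputed probe set values of the 5 genes kept their direction and their side of the threshold, 29 passed that had not, 39 no longer passed and 42 changed sign, and the cause was not tested in any case; 94 of the recomputed counts stayed within 1.5 times and 44 did not. All values are log2 differences from limma, and counts are of probe sets called. The main counts were 1301 for the knockout in 129Sv, 1144 for the knockout in B6, 74 for the difference of the effects, 3369 between wild types and 7439 between knockouts. Without a filter on low values or without a variance trend, the calls of Sohlh1 between wild types (1.75) and of Sohlh2 between knockouts (1.15) were lost, and that of Sohlh2 also under quantile normalisation (1.11) and median centring (1.08). With 1 probe set per gene Sohlh2 in B6 (1.38) passed, and the counts were 167 for the difference, 2054 between wild types and 4345 between knockouts. With values raised to at least 16, Sohlh1 in B6 (-1.42) no longer passed and the difference count was 177. With only the groups compared, the B6 count was 394, and Zbtb16 (0.86) and Sohlh2 (1.15) between knockouts no longer passed.

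With array weights the counts were 3169, 4691, 1358, 6430 and 11214. In that fit Kitl 1415855_at (-0.36), Zbtb16 (-0.79) and Sohlh2 (2.01) passed in B6, Zbtb16 (-1.16) and Sohlh1 (2.25) passed for the difference, Sohlh2 between knockouts (0.56) did not, and Kit in 129Sv (-0.0651) and Kitl 1415854_at for the difference (-0.0448) changed sign. With the replicate block Sohlh2 in B6 (1.38) passed with a limma adjusted p of 0.0106, and the counts were 1075, 852, 72, 2785 and 6511. Whether the replicate numbers pair the samples is not known, so no strength of an effect is read from that fit. With the first number of the titles, which some arrays share, as a random block, no call of the 5 genes changed. With the number in front of the strain code in the titles as a covariate, the counts were 280 in 129Sv, 16 for the difference and 1921 between wild types, Sohlh1 between wild types (2.18) and Sohlh2 between knockouts (1.15) no longer passed, and Kitl 1448117_at for the difference (0.15) changed sign. With the Actb ratio as a covariate, the B6 count was 660, Zbtb16 in B6 (-0.97) passed, Sohlh1 between wild types (1.69) did not, and Kit in B6 (0.0326), Kitl 1415854_at (-0.21) and Kitl 1415855_at (-0.0461) for the difference changed sign. Without the 2 arrays of the highest Actb ratio, the difference count was 124, Sohlh2 passed in B6 (1.92) and not between knockouts (0.41), and Kitl 1415854_at for the difference (-0.34) and Kitl 1415855_at between knockouts (0.0004) changed sign.

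With arrays scaled to Ddx4 and Dazl, which put the median difference of all probe sets at -0.224 in 129Sv, 0.309 in B6, -0.518 for the difference, -0.334 between wild types and -0.851 between knockouts, the counts were 696, 378, 5, 2215 and 17084. Of the calls, 29.5% and 38.1% were then higher for the knockout in 129Sv and B6, 14.4% between wild types and 3.72% between knockouts, against 52.2%, 25.4%, 60.6% and 57.5%. In that scale Sohlh2 in B6 (1.67) passed. Sohlh1 between wild types (1.40), Zbtb16 between knockouts (0.0005) and Sohlh2 between knockouts (0.28) did not. All 4 Kitl probe sets passed between knockouts (-0.94 for 1415855_at). Kit changed sign in 129Sv (-0.0944), in B6 (0.23) and for the difference (-0.32), as did Kitl 1415854_at (-0.46), 1415855_at (-0.45) and 1426152_a_at (-0.20) for the difference. The scale of the Sertoli cell markers was planned for Kitl alone and was extended to the other genes after seeing the data. It put that median at 0.384 in 129Sv and 0.322 in B6, and the counts were 7767, 6608, 10379 between wild types and 13017 between knockouts. There Sohlh2 in B6 (1.69) passed, Kit in B6 (0.24) changed sign and Kit between knockouts (-0.52) no longer passed. Kitl changed sign in 129Sv (0.0824 for 1415855_at), for the difference (0.0165 for 1448117_at), between wild types (0.25 for 1415855_at and 0.12 for 1448117_at) and between knockouts (0.12 for 1415854_at, 0.39 for 1415855_at, 0.36 for 1426152_a_at and 0.14 for 1448117_at).

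Leaving out each array in turn gave counts of 649 to 1995 for 129Sv, 437 to 1523 for B6, 34 to 141 for the difference and 1683 to 4869 between wild types. It gave Sohlh1 -1.92 to -0.79 in 129Sv, -2.74 to -2.02 in B6 and 1.46 to 2.18 between wild types, Sohlh2 1.09 to 1.92 in B6 and 0.61 to 1.45 between knockouts, and Zbtb16 0.59 to 1.07 between knockouts. Single arrays ended the calls of Sohlh1 in B6 and between wild types, and of Sohlh2 and Zbtb16 between knockouts. Kit ran from -0.10 to 0.30 in 129Sv, -0.17 to 0.0555 in B6 and -0.0312 to 0.37 for the difference. For the difference Kitl ran from -0.25 to 0.0941 (1448117_at), -0.33 to 0.33 (1415854_at), -0.0803 to 0.20 (1415855_at) and -0.0160 to 0.55 (1426152_a_at), and between knockouts from -0.21 to 0.0706 (1415855_at) and -0.43 to 0.14 (1426152_a_at).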
